A study of Mus musculus with 9 samples.

Results

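Growth hormone signals to the nucleus through its receptor, the kinases of the JAK family, the STAT transcription factors and the SOCS proteins that switch the signal off. The 10 mouse genes described here are the receptor Ghr, the kinases Jak1, Jak2 and Tyk2, the transcription factors Stat3, Stat5a and Stat5b, and the inhibitors Socs2, Socs3 and Cish. They were chosen by name from this pathway, with earlier results of these data known. All 10 were found among the 37816 genes with a count in the cerebellum of the mice.

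The mice were transgenic for human ATXN3, carried on a yeast artificial chromosome in a C57BL/6 background, as a model of spinocerebellar ataxia type 3 (SCA3). The CAG tract had 15 repeats in the 15Q mice and 84 repeats in the 84Q and 84Q+IGF-1 mice. Cerebellar tissue was taken at 18 months, from 3 mice per group, after weekly intraperitoneal injections that began at 9 months. The 84Q+IGF-1 mice received insulin-like growth factor 1 (IGF-1) at 50 mg/kg. The other groups received PBS per the protocol, while the treatment label of both is untreated. The 15Q and 84Q mice were separate transgenic lines from different sources, so that line and repeat length cannot be told apart, and no group was without a transgene.

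Growth hormone binds a receptor without enzyme activity of its own, to which the kinase JAK2 is attached. JAK2 phosphorylates the receptor and the transcription factors STAT5A and STAT5B, which bind DNA as dimers and raise the expression of genes such as Igf1, Socs2 and Cish. JAK1, TYK2 and STAT3 serve mainly the receptors of the interleukin 6 and interferon families, and SOCS3 is a feedback inhibitor induced by STAT3. In the brain, STAT3 is best known for its part in the reaction of astrocytes, and the growth hormone receptor is found on neurons and glia at low levels.

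STAT dimers recognize the palindrome TTCNNNGAA, which reads the same on both strands. This motif was searched in the RefSeq promoter windows (GRCm38.p6), each from 250 bases before to 50 bases after a transcription start. Of the 10 genes, 9 had a window, and Socs2 had none in the table. They had 12 windows in all, and 2 of these, one of Cish and one of Socs3, held the motif. Of all 32851 windows, 8.3% held it. The Cish stretch lies on the plus strand at chr9:107296654-107296683, begins 5 bases before the start and holds the motif at positions 1 and 12 from the start. The Socs3 stretch lies on the minus strand at chr11:117969367-117969616, covers the 250 bases before the start and holds it 154 bases before the start. Both are shown from 5′ to 3′ because these feedback inhibitors are the genes with the motif among the 9 searched, and capitals mark the motif.
Cish: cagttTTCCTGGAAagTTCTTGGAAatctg
Socs3: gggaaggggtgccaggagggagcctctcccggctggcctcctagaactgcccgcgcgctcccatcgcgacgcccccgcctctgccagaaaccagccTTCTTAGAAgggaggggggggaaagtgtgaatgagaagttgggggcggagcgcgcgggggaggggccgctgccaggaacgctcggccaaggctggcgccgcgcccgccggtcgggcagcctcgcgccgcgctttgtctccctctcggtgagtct
A match of these letters is a description of the sequence. Binding of STAT proteins was not measured in these mice.

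The study also designed qPCR primers for Ghr and Jak2, and these show which exons it probed. The Ghr pair lies in exons 7 and 8 of the transcript Ghr-201, with the forward primer across the junction, and fits 4 of the 10 annotated transcripts of the gene, with a product of 101 bases. The Jak2 pair lies in exons 16 and 17 of Jak2-201 and fits 3 of 4 transcripts, with a product of 89 bases. The qPCR values were not used here.
Ghr forward: agtaaatgaatcaaaatggaaagtga
Ghr reverse: atctcacccgcacttcatgt
Jak2 forward: cctgagtgctctggattctca
Jak2 reverse: ggtttgctaactctgtccacttg

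The genes lie on 6 chromosomes of GRCm38. Stat5b (ENSMUSG00000020919.11, chromosome 11, 100780731 to 100850724, minus strand), Stat5a (ENSMUSG00000004043.14, 100859351 to 100885169, plus strand) and Stat3 (ENSMUSG00000004040.16, 100885098 to 100939540, minus strand) form a cluster. A gap of 8626 bases separates Stat5b from Stat5a, and the 3′ ends of Stat5a and Stat3 overlap by 72 bases. Socs3 (ENSMUSG00000053113.3, 117966079 to 117970047, minus strand) lies on the same chromosome. Ghr (ENSMUSG00000055737.12) spans 3317760 to 3583492 on the minus strand of chromosome 15. Jak1 (ENSMUSG00000028530.14) spans 101152367 to 101265282 on the minus strand of chromosome 4, and Jak2 (ENSMUSG00000024789.13) 29251828 to 29313080 on the plus strand of chromosome 19. Tyk2 (ENSMUSG00000032175.11, 21104068 to 21131243, minus strand) and Cish (ENSMUSG00000032578.7, 107296026 to 107302784, plus strand) are on chromosome 9. Socs2 (ENSMUSG00000020027.18) spans 95385362 to 95417180 on the minus strand of chromosome 10.

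Some reads may not belong to 1 gene. The library kit keeps the strand, but the strand setting of the counting is not stated, so reads of a gene and of an antisense partner may not be told apart. The antisense gene 1700084C06Rik covers 554 bases (8.07%) of the Tyk2 exons, and Gm17041 covers 479 bases (7.46%) of those of Cish, which Gm17040 also overlaps by 261 bases. Stat5a and Stat5b are paralogs, and 175 of the 7921 windows of 150 bases in the Stat5a transcripts were also found among those of Stat5b.

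The counts summed to between 17482654 and 58269196 per library, the lowest in an 84Q library and the highest in a 15Q library. A floor of 3 counts stood at 0.0515 to 0.172 CPM (counts scaled to the TMM-adjusted library total), and each of the 10 genes lay above it in all 9 libraries. The 5 Purkinje cell markers and the 5 granule cell markers were above the floor in every library labelled as cerebellum. Markers of other tissues differed between libraries. Choroid plexus markers summed to 1121 to 2062 CPM in 15Q replicates 1 and 3 and 84Q replicate 2, against 119 to 210 CPM in the other 6 libraries. Liver markers summed to 21.7 to 39.3 CPM in the 15Q libraries against 2.90 to 4.67 CPM in the others, and markers of intestine, skeletal muscle and epidermis were likewise higher in all 15Q libraries. Xist was high in 4 libraries of the 3 groups, so both sexes were present. Between replicates of one group, the chi-square per gene was 9.50 to 15.5, above the sampling noise. The labels do not say that the samples came from separate litters or batches, and p-values measure the spread between these mice.

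Across the 10 genes, the kinases and the STATs stood above the receptor and the SOCS genes, with the exception of Stat5a, which ranked below Socs2. In TPM, which corrects counts for gene length and library size, Jak1 had the highest mean level over the 9 libraries at 101 ± 4.85 (SD, n = 9). It was followed by Stat5b at 80.8, Jak2 at 47.4, Stat3 at 28.8 and Tyk2 at 23.3 TPM. Socs2 at 6.90, Stat5a at 5.86, Socs3 at 3.16, Ghr at 2.64 and Cish at 0.899 TPM were lower. The member higher in this order was higher than its neighbour in 9 of 9 libraries for every pair except Socs3 and Ghr, where it was higher in 8 of 9. Socs2 exceeded Stat5a by as little as 1.02 times in 1 library. With the length of the longest transcript in place of the union of exons, Ghr stood at 4.55 and Socs3 at 2.84 TPM, so the order of this pair depends on the gene model.

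**Figure D1:**
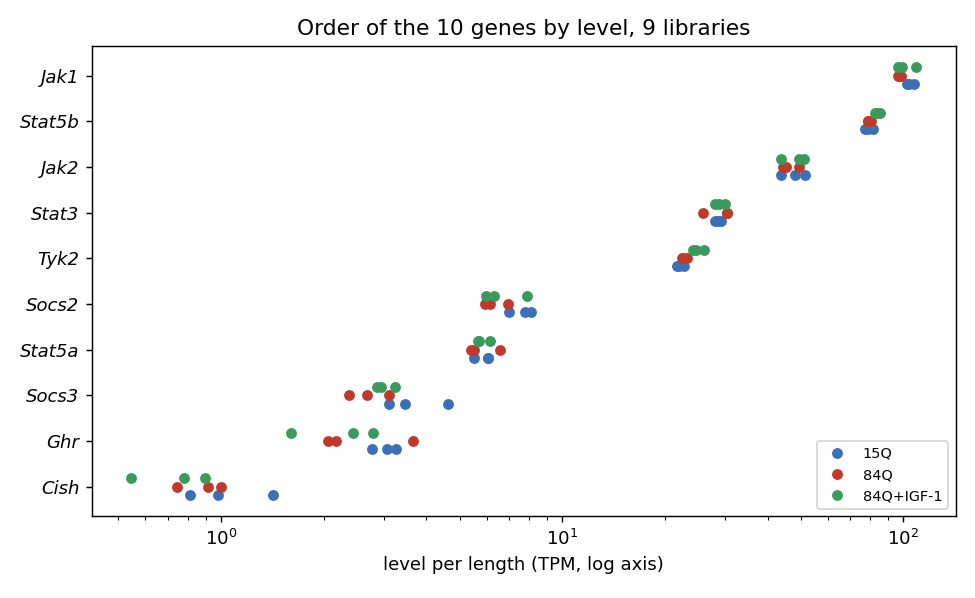
Level per length of each of the 10 genes (TPM, log axis), with 1 point per library, coloured by group. Jak1 and Stat5b stand highest and Cish lowest in each library, and the points of Socs3 and Ghr share a range.

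Stat5b was the main STAT5 gene in this tissue. Its TPM was 12.3 to 14.8 times that of Stat5a in each of the 9 libraries. The ratio depends on the gene model, since the length of the longest transcript gave means of 68.2 TPM for Stat5b and 8.39 TPM for Stat5a. The spread over libraries also differed among the genes. The coefficient of variation of CPM was 3.38% for Jak1 and 3.55% for Stat5b, and 25.5% for Cish, 23.6% for Ghr and 18.5% for Socs3. The 3 genes with the widest spread also had the fewest reads, with 21 to 130 counts of Cish, 31 to 190 of Socs3 and 84 to 419 of Ghr per library, against 3152 to 10711 of Jak1. Stat5a, with 178 to 560 counts, had a coefficient of variation of 6.61%, below that of Ghr, which had fewer reads in every library. The part of depth in these spreads was not tested.

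Ghr, the receptor, was measured at 6.24, 6.87 and 7.16 CPM in the 15Q libraries, at 4.96, 8.39 and 4.78 CPM in the 84Q libraries, and at 3.73, 5.49 and 6.20 CPM in the 84Q+IGF-1 libraries. The 84Q+IGF-1 libraries all lay below the 15Q libraries, the lowest 15Q and highest 84Q+IGF-1 library nearly meeting, while the 84Q libraries lay on either side of them. Replicate 2 of the 84Q group had the highest Ghr level of all 9. The log2 fold change was −0.16 (SE 0.22, 95% interval −0.65 to 0.32, edgeR adjusted p = 0.734) in 84Q against 15Q. The 84Q+IGF-1 group differed from 15Q by −0.39 (interval −0.88 to 0.09, edgeR adjusted p = 0.382). It differed from 84Q by −0.23 (interval −0.73 to 0.27, edgeR adjusted p = 0.969). None of these differences passed the test. In bulk tissue, fewer cells of a type and less RNA per cell cannot be told apart.

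The Ghr levels were set beside the marker lists of choroid plexus and meninges. The choroid plexus list summed to 1159, 169 and 1121 CPM in the 15Q libraries, 192, 2062 and 148 CPM in the 84Q libraries, and 119, 137 and 210 CPM in the 84Q+IGF-1 libraries. All 10 of its markers were above the floor in the 15Q libraries, 6 to 10 in the 84Q libraries and 7 to 10 in the 84Q+IGF-1 libraries. The library with the highest Ghr level also had the highest sum. Within 15Q, Ghr was at 6.24 CPM at the highest sum, 7.16 CPM at a sum of 1121 CPM and 6.87 CPM at the lowest sum. All 7 meninges markers were above the floor in every library, at a sum of 103 to 150 CPM in 15Q, 63.0 to 89.4 CPM in 84Q and 58.3 to 74.4 CPM in 84Q+IGF-1. Their part in the Ghr differences was not tested. Leaving out the 3 libraries high in choroid plexus markers left only replicate 2 in the 15Q group. The log2 fold change of Ghr was then −0.49 for 84Q against 15Q, −0.40 for the treated mice against 15Q and 0.08 for the treated mice against 84Q. The value in 84Q against 15Q rested on single 84Q libraries. It was −0.026 without 84Q replicate 1, −0.029 without 84Q replicate 3 and −0.47 without 84Q replicate 2, and it passed the test in none of these fits, the smallest edgeR adjusted p being 0.216. The comparison of 84Q+IGF-1 with 84Q also turned to 0.08 without 84Q replicate 2.

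**Figure D2:**
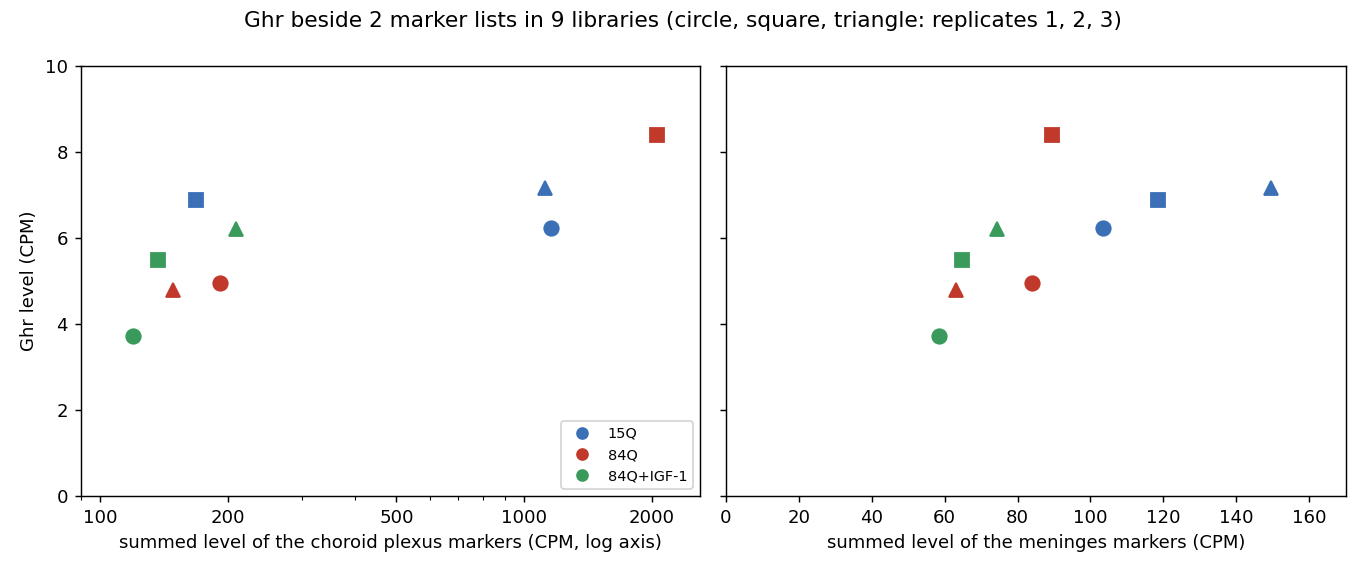
Ghr level (CPM) against the summed CPM of choroid plexus markers (left, log axis) and meninges markers (right) in the 9 libraries, coloured by group, with the replicate given by the symbol. The 84Q library with 8.39 CPM of Ghr stands at 2062 CPM of choroid plexus markers, far from the other 84Q libraries.

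Jak2, the kinase bound to the growth hormone receptor, was measured at 54.8, 59.9 and 63.0 CPM in 15Q, 63.1, 57.9 and 57.4 CPM in 84Q, and 56.6, 63.9 and 61.4 CPM in 84Q+IGF-1. The 3 groups overlapped. Its log2 fold change was 0.00 (95% interval −0.15 to 0.16) in 84Q against 15Q, 0.03 (−0.12 to 0.18) for the treated mice against 15Q and 0.03 (−0.12 to 0.18) for the treated mice against 84Q. With Xist as a covariate, the value in 84Q against 15Q was 0.06.

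Jak1, a kinase of interleukin 6 and interferon receptors, was measured at 184, 193 and 183 CPM in 15Q, 180, 178 and 179 CPM in 84Q, and 180, 178 and 194 CPM in 84Q+IGF-1. All 84Q libraries lay below all 15Q libraries, by a log2 fold change of −0.06 (interval −0.17 to 0.06, edgeR adjusted p = 0.589). The 84Q+IGF-1 libraries covered the range of both groups.

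Tyk2, which pairs with JAK1 at interferon receptors, had the difference with the smallest p of the 10 genes. It was measured at 37.4, 38.8 and 36.1 CPM in 15Q, 39.2, 39.3 and 41.1 CPM in 84Q, and 43.5, 44.6 and 40.8 CPM in 84Q+IGF-1. The 84Q libraries and the 84Q+IGF-1 libraries lay above all 15Q libraries, and the 84Q+IGF-1 libraries overlapped with those of 84Q. The fold change in 84Q+IGF-1 against 15Q was 1.15 (log2 0.20, SE 0.06, interval 0.06 to 0.33), with an unadjusted p of 0.0081 and an edgeR adjusted p of 0.140. Its adjusted p was 0.0866 with DESeq2 and 0.116 to 0.392 with 1 library left out of the edgeR fit. The difference did not reach the threshold in edgeR, and it stayed under the fold of 1.5 in every fit. It was 0.09 (interval −0.05 to 0.23) in 84Q against 15Q and 0.11 (−0.03 to 0.25) in 84Q+IGF-1 against 84Q on the log2 scale.

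**Figure D3:**
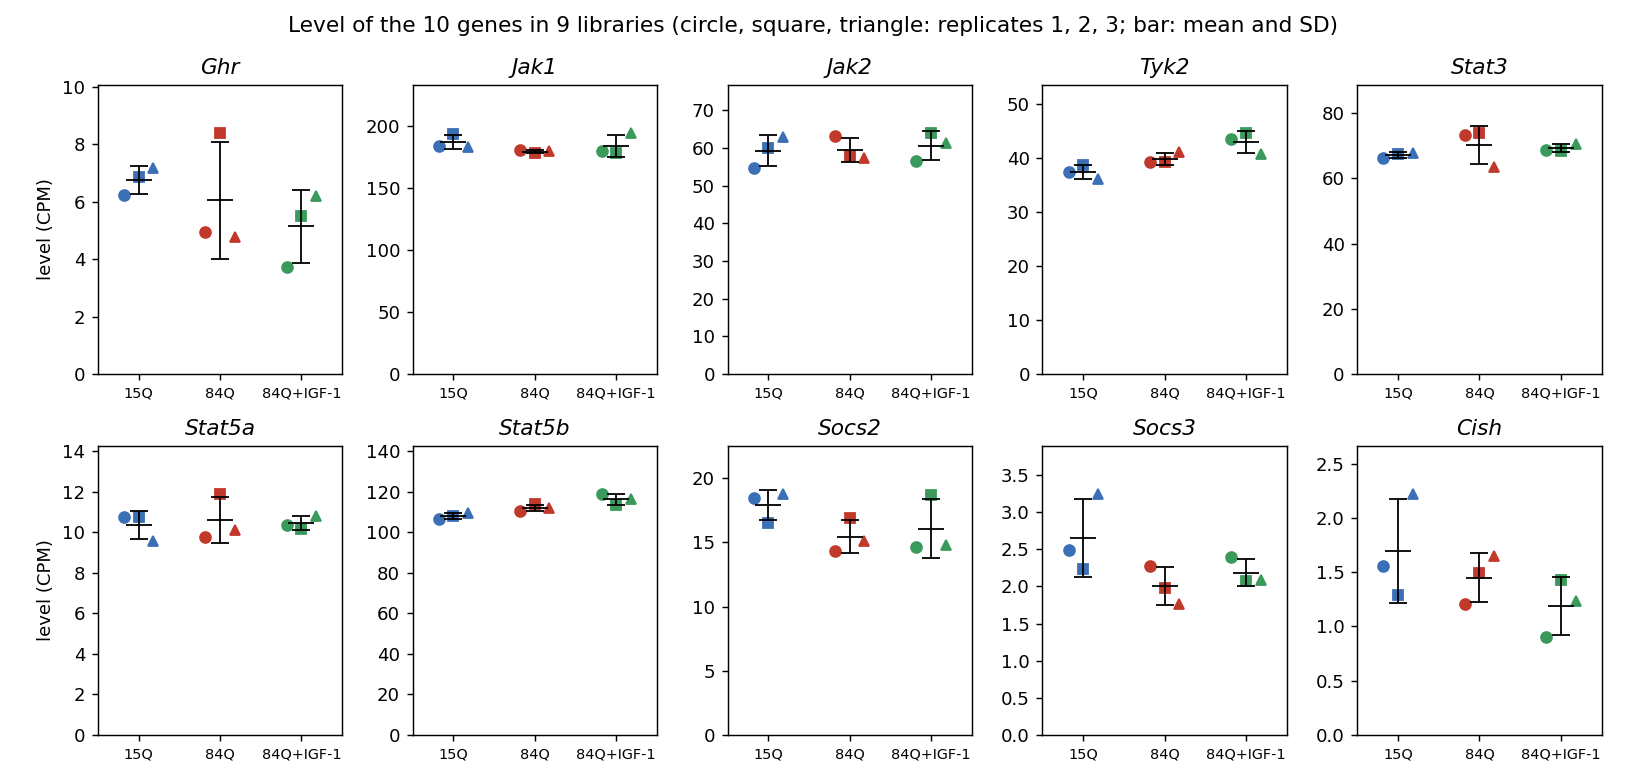
Level of each gene (CPM) in the 9 libraries, grouped as 15Q, 84Q and 84Q+IGF-1, with 1 symbol per replicate and bars for the mean and SD of 3 mice. Tyk2 and Stat5b lie higher in the 84Q and 84Q+IGF-1 libraries than in the 15Q libraries by small steps, and the other genes overlap with 15Q in the 84Q or the 84Q+IGF-1 group.

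Stat5b, the more abundant target of JAK2, was measured at 107, 108 and 110 CPM in 15Q, 111, 114 and 112 CPM in 84Q, and 119, 114 and 117 CPM in 84Q+IGF-1. All libraries with the 84-repeat transgene lay above all 15Q libraries. The log2 fold change was 0.05 (interval −0.05 to 0.15, edgeR adjusted p = 0.573) in 84Q against 15Q. The treated mice differed from 15Q by 0.11 (SE 0.04, interval 0.01 to 0.20), a fold of 1.08, with an unadjusted p of 0.0361 and an edgeR adjusted p of 0.246. It did not pass the test in either comparison.

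Stat5a, its paralog, was measured at 10.8, 10.7 and 9.57 CPM in 15Q, 9.79, 11.9 and 10.1 CPM in 84Q, and 10.4, 10.2 and 10.8 CPM in 84Q+IGF-1. The groups overlapped. The log2 fold changes were 0.04 (interval −0.19 to 0.26), 0.02 (−0.21 to 0.24) and −0.02 (−0.25 to 0.21) in the comparisons of 84Q with 15Q, of 84Q+IGF-1 with 15Q and of 84Q+IGF-1 with 84Q.

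Stat3, the STAT of the interleukin 6 family, was measured at 66.2, 67.5 and 67.9 CPM in 15Q, 73.2, 73.9 and 63.5 CPM in 84Q, and 68.7, 68.4 and 70.6 CPM in 84Q+IGF-1. The 84Q+IGF-1 libraries lay above the 15Q libraries by a log2 fold change of 0.04 (interval −0.09 to 0.17, edgeR adjusted p = 0.747), and the 84Q libraries spread over both. Against 15Q, 84Q differed by 0.06 (interval −0.07 to 0.19) on the log2 scale. This value was 0.13 without 84Q replicate 3 and 0.03 without 84Q replicate 2.

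Socs2, an inhibitor of growth hormone signaling, was measured at 18.4, 16.5 and 18.8 CPM in 15Q, 14.3, 16.9 and 15.1 CPM in 84Q, and 14.7, 18.7 and 14.8 CPM in 84Q+IGF-1. In each of the 84Q and 84Q+IGF-1 groups, 1 library, replicate 2, reached into the range of 15Q. The log2 fold change was −0.22 (SE 0.11, interval −0.46 to 0.03, edgeR adjusted p = 0.314) in 84Q against 15Q and −0.16 (interval −0.40 to 0.08, edgeR adjusted p = 0.480) in 84Q+IGF-1 against 15Q. With 1 library left out, the first ranged from −0.28 to −0.16 and the second from −0.28 to −0.10.

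Socs3, the inhibitor that acts on the interleukin 6 family, was measured at 2.49, 2.23 and 3.25 CPM in 15Q, 2.27, 1.98 and 1.77 CPM in 84Q, and 2.40, 2.07 and 2.09 CPM in 84Q+IGF-1. 15Q replicates 3 and 1 were the highest of the 9 libraries, and 15Q replicate 2 lay within the range of both other groups. The log2 fold change of −0.40 (SE 0.19, interval −0.82 to 0.02) in 84Q against 15Q had an unadjusted p of 0.0586 and an edgeR adjusted p of 0.278. For 84Q+IGF-1 against 15Q it was −0.29 (interval −0.71 to 0.12, edgeR adjusted p = 0.442). Without the 3 libraries high in choroid plexus markers, with only 15Q replicate 2 left in that group, the values were −0.12 and −0.03. Without 15Q replicate 3 alone, the highest of these in Socs3, they were −0.22 and −0.10.

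Cish, the STAT5 target with the motif pair at its start, was measured at 1.56, 1.29 and 2.22 CPM in 15Q, 1.21, 1.49 and 1.65 CPM in 84Q, and 0.90, 1.43 and 1.23 CPM in 84Q+IGF-1. The groups overlapped. The log2 fold change was −0.25 (interval −0.82 to 0.32, edgeR adjusted p = 0.643) in 84Q against 15Q, and −0.52 (SE 0.26, interval −1.09 to 0.05, edgeR adjusted p = 0.329) in 84Q+IGF-1 against 15Q. Without 15Q replicate 3 the first of these turned to 0.02. Without the 3 libraries high in choroid plexus markers, with only 15Q replicate 2 left in that group, it was 0.13. With 1 library left out, the second ranged from −0.68 to −0.24.

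**Figure D4:**
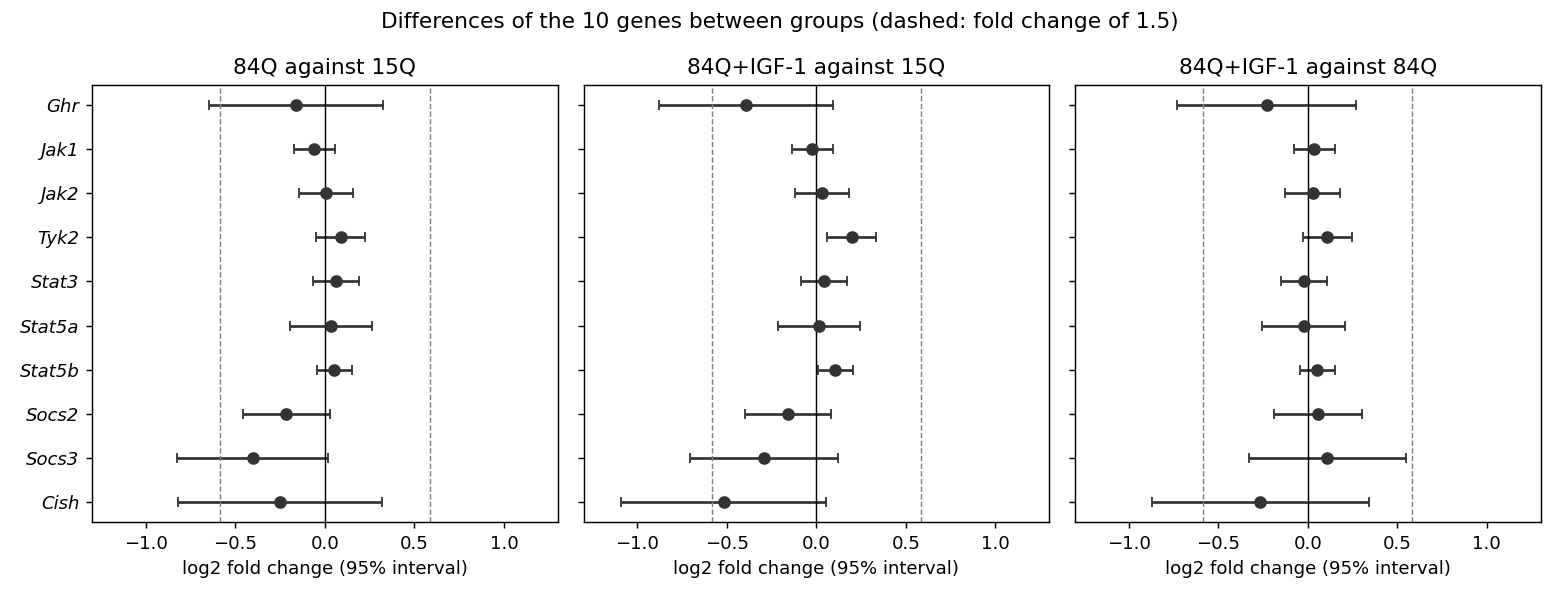
Log2 fold change of each gene with its 95% interval in the 3 comparisons, with dashed lines at a fold change of 1.5. The intervals of Ghr and Cish reach past a dashed line in each panel and that of Socs3 does so in both comparisons with 15Q, while the intervals of the kinases and STATs stay inside the lines.

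The first comparison, 84Q against 15Q, sets mice with the expanded repeat beside mice with the short repeat, in lines that differ in source as well. None of the 10 genes was called by edgeR (adjusted p under 0.1, fold of 1.5 or more), where 414 of the 19353 genes tested (2.14%) were. None was called by DESeq2, which called 2.18% of the genes it adjusted. None had an unadjusted p under 0.05, against 19.4% of all genes. All 84Q libraries lay below all 15Q libraries for 1 gene (Jak1; 13.5% of all genes) and above them for 2 genes (Tyk2 and Stat5b; 11.9%), shares near the background. The median log2 fold change of the 10 genes was −0.03, against −0.00 over all genes. The 95% interval lay inside a fold change of 1.5 for 7 of the 10 genes, and for Ghr, Socs3 and Cish it did not.

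The second comparison, 84Q+IGF-1 against 15Q, sets the treated mice beside the same 15Q libraries, so the 2 comparisons share their controls. None of the 10 genes was called by edgeR (435 genes, 2.25%, were) or by DESeq2 (2.46%). Tyk2 and Stat5b had an unadjusted p under 0.05, that is 2 of 10, against 17.7% of all genes. The groups did not overlap, lower in 84Q+IGF-1, for 1 gene (Ghr; 13.0% of all genes) and, higher, for 3 genes (Tyk2, Stat3 and Stat5b; 11.7% of all genes). The median log2 fold change was −0.00 for the 10 genes and −0.01 for all genes. Again 7 of 10 intervals lay inside a fold of 1.5, with the same 3 exceptions.

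The third comparison, 84Q+IGF-1 against 84Q, asks for an effect of IGF-1 in mice with the expanded repeat. For each of the 10 genes the libraries of the groups overlapped, where 4.50% of all genes were lower and 3.96% higher without overlap. None of the 10 was called by edgeR or DESeq2, and none had an unadjusted p under 0.05. Over all genes edgeR called 0 (0%), 905 had an unadjusted p under 0.05 (4.68%), and DESeq2 called 6 (0.0159%). The smallest adjusted p among the 10 was 0.969. The interval lay inside a fold of 1.5 for 8 of 10, the exceptions being Ghr and Cish.

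The rest of the pathway was described with 8 lists of 67 further genes, of which 58 passed the filter on low counts. In 84Q against 15Q, 1 of them was called, Igf1, which was lower in 84Q, where 2.14% of all genes were called. Without regard to adjustment, 5 were higher (Lif, Sh2b3, Sh2b2, Bcl2l1 and Mcl1) and 4 lower (Igf1, Jak3, Stat6 and Pias1) at p under 0.05, that is 9 of 58, against 19.4% of all genes. In 84Q+IGF-1 against 15Q none was called by edgeR, against 2.25% of all genes. At an unadjusted p under 0.05, 3 were higher (Lif, Bcl2l1 and Mcl1) and 11 lower (Gh, Prl, Prlr, Lifr, Csf2rb, Jak3, Stat6, Socs4, Shc1, Igf1 and Lcn2), that is 14 of 58, against 17.7% of all genes. In 84Q+IGF-1 against 84Q none was called by edgeR, against 0% of all genes. At an unadjusted p under 0.05, 1 was higher (Socs7) and 2 lower (Gh and Prlr), against 4.68% of all genes. Lif, Sh2b3, Sh2b2, Jak3, Pias1, Socs4, Shc1, the other STAT3 targets and the receptors Prlr, Lifr and Csf2rb were named after their values were seen. DESeq2 called 1 of the 58, also Igf1, in 84Q against 15Q and 0 in the other comparisons. Of all genes it adjusted, it called 2.18%, 2.46% and 0.0159% in the 3 comparisons. The medians of the 58 were −0.03, −0.06 and −0.03 in the 3 comparisons.

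**Figure D5:**
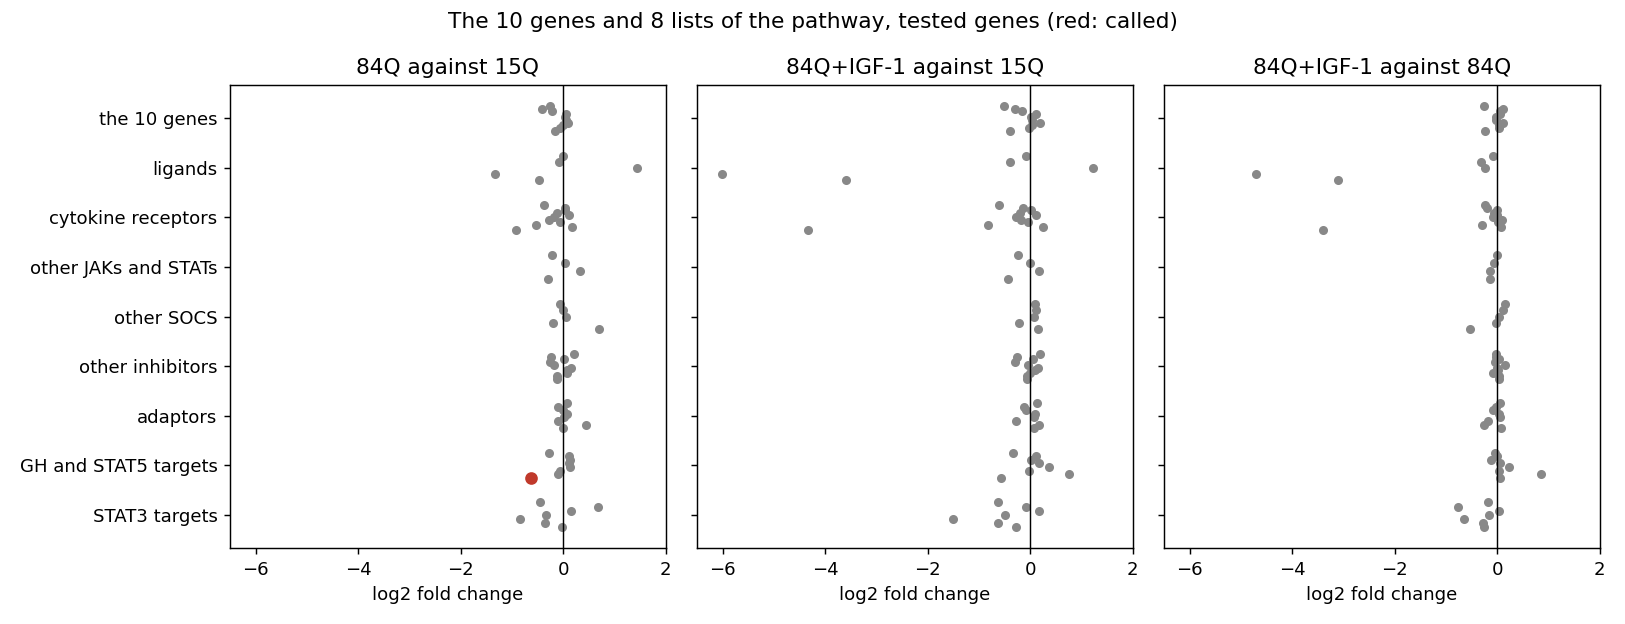
Log2 fold change of the 10 genes and of the tested genes of 8 lists of the pathway, 1 point per gene and 1 panel per comparison, with the called gene in red. The called gene is Igf1 in 84Q against 15Q, and the points far to the left in the comparisons with 84Q+IGF-1 include Prl and Gh.

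Igf1, the growth factor whose transcription growth hormone raises through STAT5, was measured at 8.36, 10.8 and 10.6 CPM in 15Q, 7.41, 5.84 and 6.09 CPM in 84Q, and 6.47, 6.81 and 6.81 CPM in 84Q+IGF-1. All libraries of both 84Q groups lay below all 15Q libraries. The log2 fold change was −0.62 (SE 0.13, interval −0.91 to −0.33, edgeR adjusted p = 0.0405) in 84Q against 15Q. For 84Q+IGF-1 against 15Q it was −0.57 (SE 0.13, edgeR adjusted p = 0.0531), just short of a fold of 1.5 and so not called, and the groups with 84 repeats differed from each other by 0.05 (edgeR adjusted p = 0.993). The call in 84Q against 15Q was lost without 15Q replicate 2 (log2 fold change −0.55, adjusted p = 0.175), 15Q replicate 3 (−0.57, 0.173), 84Q replicate 2 (−0.55, 0.0911) or 84Q replicate 3 (−0.58, 0.134), each with a fold under 1.5. It was also lost with Xist as a covariate (log2 fold change −0.53, edgeR adjusted p = 0.0680), again with a fold under 1.5. Without the 3 libraries high in choroid plexus markers, with only 15Q replicate 2 left in that group, the log2 fold change was −0.67. Against 15Q, Igf1 of the treated mice was called once 15Q replicate 1 was left out (−0.67, adjusted p = 0.0245). The meninges and liver markers, given above, were also higher in all 15Q libraries, and their part in the Igf1 difference was not tested.

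The other targets of growth hormone and STAT5 on the list, 8 with Igf1 in the test, had no further call. Bcl2l1, which protects cells from apoptosis, was measured at 107, 112 and 105 CPM in 15Q and at 121, 125 and 119 CPM in 84Q+IGF-1, a log2 fold change of 0.17 (edgeR adjusted p = 0.155). Bcl6, a repressor that STAT5 controls, had a log2 fold change of 0.36 (interval −0.00 to 0.73, edgeR adjusted p = 0.284) in the same comparison. Of the 7 tested targets of STAT3, none was called by edgeR or DESeq2. Their median log2 fold change was −0.33 in 84Q against 15Q and −0.50 for the treated mice against 15Q, beside −0.00 and −0.01 over all genes. The iron-binding protein gene Lcn2 had values of −0.85 and −1.50, Serpina3n −0.36 and −0.63, Bcl3 −0.45 and −0.62, Timp1 −0.33 and −0.50, and Junb 0.68 and −0.08, the first against 15Q in 84Q and the second in the treated mice. Of these, Lcn2 in the treated mice had an unadjusted p under 0.05. Junb ranged from 7.34 to 29.3 CPM in 84Q, with a median of 11.4 CPM, against 8.13 to 11.3 CPM in 15Q. Lcn2 had 5 to 87 counts per library, Bcl3 6 to 56 and Timp1 19 to 121. The meninges and liver markers were also higher in all 15Q libraries, and their part in the differences of the STAT3 targets was not tested. Gfap, the filament protein of astrocytes, differed from 15Q on the log2 scale by −0.02 in 84Q mice and by −0.28 in the treated mice, and the survival gene Mcl1 had 0.15 and 0.18, all with an edgeR adjusted p of 0.207 or more.

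Among the ligands, 5 of 10 had enough counts. Gh, the ligand of Ghr, is a hormone of the anterior pituitary and was named after its values were seen. It had 64, 121 and 26 counts in the 15Q libraries, 104, 3 and 0 in the 84Q libraries and 9, 0 and 3 in the 84Q+IGF-1 libraries. Prl, the other large hormone of that gland, had 9, 473 and 58 counts in 15Q, 139, 0 and 0 in 84Q and 4, 0 and 1 in 84Q+IGF-1. The libraries with the most Prl, 15Q replicate 2 and 84Q replicate 1, also had the most Gh. Both genes are on the list of 7 pituitary markers, of which 4 to 6 were above the floor in the 15Q libraries and 2 to 4 in those of the other groups. The list summed to 8.22 to 23.4 CPM in 15Q, 7.57 to 16.0 CPM in 84Q and 5.45 to 7.43 CPM in 84Q+IGF-1. The part of tissue other than cerebellum in the Gh and Prl counts was not tested, and neither gene was called. Thpo, the ligand of the thrombopoietin receptor, was the ligand with the highest level per length, at 13.9 TPM, and differed by at most 0.09 on the log2 scale.

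Cytokine receptors were tested for 11 of 12 genes, with no call and 3 genes, Prlr, Lifr and Csf2rb, lower at an unadjusted p under 0.05 in 84Q+IGF-1 against 15Q, where 17.7% of all genes had such a p in either direction. Prlr, the prolactin receptor, had 241, 43 and 910 counts in 15Q, 30, 281 and 2 in 84Q, and 1, 11 and 22 in 84Q+IGF-1. Its highest counts were in the 3 libraries high in choroid plexus markers, and the part of that tissue in the Prlr difference was not tested. Lifr had a log2 fold change of −0.27 and Csf2rb of −0.61, and both overlapped between the groups. Cntfr, the receptor of ciliary neurotrophic factor, had the highest level of the list at 242 TPM, and Il6st, the shared signaling chain of the interleukin 6 family, was at 69.6 TPM. Both stood above Ghr, at 2.64 TPM, and their log2 fold changes stayed between −0.05 and 0.11.

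Of the other JAKs and STATs, 4 of 5 genes were tested. Stat2, which acts in the interferon response, had a mean of 129 TPM, above each of the 10 genes. Stat6, the STAT of interleukin 4, was measured at 22.3, 23.1 and 22.9 CPM in 15Q, 20.7, 19.9 and 17.7 CPM in 84Q, and 20.6, 20.0 and 17.7 CPM in 84Q+IGF-1. Both groups with 84 repeats lay below 15Q, with log2 fold changes of −0.22 (interval −0.41 to −0.04, edgeR adjusted p = 0.186) and −0.23 (interval −0.42 to −0.04, edgeR adjusted p = 0.196), which did not pass the test. Jak3, a kinase of receptors in lymphoid cells, had a log2 fold change of −0.44 in the treated mice against 15Q without overlap (edgeR adjusted p = 0.110, DESeq2 adjusted p = 0.0807), and its fold stayed under 1.5, so it was not called.

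The 5 other SOCS genes were all tested, and Socs7 (112 TPM) and Socs5 (52.0 TPM) stood far above Socs2, Socs3 and Cish. Socs7 was measured at 194, 193 and 198 CPM in 84Q and at 212, 224 and 214 CPM in 84Q+IGF-1 without overlap. The difference was 0.15 on the log2 scale (interval 0.04 to 0.27), with an unadjusted p of 0.0125 and an edgeR adjusted p of 0.969. The other inhibitors (10 of 10 tested) and the adaptors (8 of 8) had no call. The adaptor Shc1 had a log2 fold change of −0.29 in the treated mice against 15Q without overlap, and did not pass the test. Ptpn11, the phosphatase SHP2, and Pias2, a SUMO ligase that binds STATs, differed by at most 0.11 on the log2 scale in any comparison, and the adaptors Grb2 and Sh2b1 by at most 0.08.

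The genes whose pattern over the 9 libraries was most like that of each gene were sought by Pearson's r of log2 CPM, a description in which all points share their library. For Ghr these were Gm9801 (r = 0.966), Fbn1 (0.957) and Efcc1 (0.951), and 43 genes had an r above 0.9. Fbn1 encodes fibrillin, a protein of the extracellular matrix. For Tyk2 they were Sec24c (0.973), Snupn (0.968) and Zgpat (0.953), for Stat5b Gm42688 (0.972), Sssca1 (0.959) and Nup85 (0.953), and for Stat5a Zfp41 (0.977), Egfem1 (0.935) and Ano5 (0.911). The most alike were Senp2 (0.957) for Jak1, Slc35e2 (0.952) for Jak2, Gm49066 (0.946) for Stat3, Ccdc73 (0.965) for Socs2, Bcor (0.953) for Socs3 and Polq (0.931) for Cish. None of the 10 genes was among the 3 most alike of another. With Spearman's rho in place of r, at most 1 of the 3 genes was shared for 9 of the 10, and Jak2 kept 2, so these lists depend on the measure.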

How the data were processed

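RNA of the cerebellum of 9 mice, 3 per group, was sequenced as paired-end, strand-specific libraries. The authors made base calls with bcl2fastq 2.20, trimmed reads with Trimmomatic 0.36, aligned them to mm10 (GRCm38.p6) with HISAT2 2.2.0 and counted them with featureCounts (version, annotation and strand setting not given in the sources used here). The deposited values are unnormalized read counts for 37816 genes. Groups and replicate numbers came from the labels.

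The test was a quasi-likelihood fit of all 9 libraries in edgeR 4.0.16 under R 4.3.3, after TMM scaling and filterByExpr, with Benjamini-Hochberg adjustment over 19353 genes. Calls needed an adjusted p below 0.1 together with a fold change of 1.5 or more, and tests were two-sided. Intervals used the quasi-likelihood standard error. Log2 CPM had a prior count of 2, and TPM used the exon union of GENCODE vM21. The fit was tested on simulated counts. The floor of 3 counts, which library totals set, covers counting error only, and the fit also includes the spread between mice.

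All 10 genes are named. Of the lists, called genes and the 2 genes with the highest TPM are named, and of likeness, the 3 highest r. Members and lists were chosen with earlier results of these data known. Alternatives were DESeq2 1.42.0, other thresholds, no filter, DESeq2 size factors, a replicate block, Xist as covariate, a fit of only both groups in question, and leaving out each library in turn. Leaving out the 3 libraries high in choroid plexus markers was added after seeing the data. That fit had only replicate 2 in the 15Q group, so no p-value is given for it. The 13 marker lists also covered endothelium and astrocytes, which summed to 244 to 273 and 2648 to 3210 CPM over the libraries. Microglia markers summed to 142 to 168 CPM in 15Q, 170 to 208 CPM in 84Q and 152 to 165 CPM in 84Q+IGF-1, and oligodendrocyte markers to 3746 to 4042, 3641 to 4653 and 2770 to 3683 CPM.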

Additional observations from a re-analysis of the deposited data

How the results depend on the processing

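None of the 10 genes was called in any of the 3 comparisons under any alternative, in edgeR or in DESeq2. Apart from single libraries left out, 202 log2 fold changes of the 10 genes kept their direction and 8 turned, all of them uncalled. With Xist as a covariate, Stat5a was −0.0046 in 84Q against 15Q and −0.026 in 84Q+IGF-1 against 15Q. Without the 3 libraries high in choroid plexus markers, Stat5a was −0.10, −0.032 and 0.072 in the 3 comparisons, Cish 0.13 in 84Q against 15Q, and Ghr 0.082 and Stat3 0.018 in 84Q+IGF-1 against 84Q. Igf1, which is outside these counts, was −0.019 in the last of these. With 1 library left out, 252 kept their direction and 18 turned. The ranges of those that turned in 84Q against 15Q were −0.042 to 0.057 for Jak2, −0.050 to 0.097 for Stat5a and −0.41 to 0.025 for Cish. In 84Q+IGF-1 against 15Q they were −0.060 to 0.0076 for Jak1, −0.014 to 0.085 for Jak2 and −0.036 to 0.049 for Stat5a. Against 84Q they were −0.39 to 0.083 for Ghr, −0.0034 to 0.058 for Jak1, −0.014 to 0.074 for Jak2, −0.086 to 0.018 for Stat3, −0.080 to 0.072 for Stat5a and −0.069 to 0.13 for Socs2, and for Igf1, not counted among these, −0.019 to 0.17. The libraries whose absence turned a value were 15Q replicates 1, 2 and 3, 84Q replicates 1 and 2, and 84Q+IGF-1 replicates 2 and 3. The cause was not tested.

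Replicate numbers did not pair the mice. Deviations of same-numbered libraries correlated at −0.309 to 0.0788, and 0 of 9 libraries correlated best with their own number. With the replicate block, 0 of the 10 genes were called, and 242, 271 and 0 of all genes were. Igf1 was not called in 84Q against 15Q in that fit, at a log2 fold change of −0.62 and an edgeR adjusted p of 0.108.

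The number of genes called in 84Q against 15Q and in 84Q+IGF-1 against 15Q was 243 and 281 at an adjusted p under 0.05, 928 and 711 without the fold threshold, 1025 and 1284 without the filter, and 274 and 320 with Xist. It was 184 to 551 and 226 to 629 with 1 library left out. In 84Q+IGF-1 against 84Q it was 168 without the filter and 0 to 9 with 1 library left out. Cish, Socs3 and Ghr had the fewest reads of the 10 genes and the widest intervals.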
